A study of Mus musculus with 32 samples.

Results

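Hepatic expression of apolipoprotein genes was examined for Apoa1, Apoa2, Apoa4, Apoa5, Apob, Apoc1, Apoc2, Apoc3, Apoe and Apom, 10 genes taken as the probes that carry these symbols in the annotation of each array version. The female arrays held 11 probes for 9 of the 10 genes, with none for Apob, among 25697 probes. The male arrays held 12 probes for all 10 genes among 24613 probes. Every one of these probes was detected above background on all 16 arrays of its sex.

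All mice were C57bl/6J OlaHsd, and liver RNA was taken at 20 weeks of age. Their mothers ate an 18% protein control diet or a 9% low-protein diet containing 90 g casein per kg while pregnant. The offspring were put at 6 weeks of age on a control diet or on a high-fat diet, labelled 36% SF, and stayed on it for 14 weeks. The 4 combinations in each sex held 4 arrays each, labelled as biological replicates, which gives 8 groups and 32 arrays. Litter is not in the labels, so a maternal diet may be represented by siblings. The series title names sex-dependent programming by maternal protein restriction as the question.

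Each sex was run on an array version of its own, so sex and array version cannot be told apart, and no level is compared between them. Between 44.0% and 47.3% of probes were detected on the female arrays and between 43.7% and 47.2% on the male arrays. The mean raw intensity of an array ranged from 300.0 to 461 in females and from 170 to 309 in males. In females it was 422 ± 43.9 (SD, n = 4) on control diet and 343 ± 48.9 (n = 4) on high-fat diet for offspring of 9% mothers, and 423 ± 22.0 against 385 ± 44.5 for offspring of 18% mothers. The ranges overlapped in both cases. In males the high-fat and control means were 252 ± 26.0 and 278 ± 20.9 with 9% mothers, with overlapping ranges. With 18% mothers they were 245 ± 56.8 and 267 ± 14.8, and the high-fat arrays ran from 170 to 306, beyond the control range of 247 to 282 at each end. Hepatocyte markers were detected on all 16 arrays, 9 of 9 measured in females and 7 of 7 in males. Liver is a mixed tissue, and in such bulk RNA fewer cells of a type and less RNA per cell cannot be told apart.

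Apolipoproteins are the protein shell of lipoproteins, the particles that carry triglyceride and cholesterol through blood. Apob is the structural protein of the triglyceride-rich particles that the liver secretes, and Apoa1 and Apoa2 are the main proteins of high-density lipoprotein. The small C apolipoproteins tune triglyceride hydrolysis, with Apoc2 as the cofactor that lipoprotein lipase requires and Apoc1 and Apoc3 as inhibitors of lipolysis or particle uptake. Apoe is the ligand for remnant uptake by liver receptors. In mice Apoa4 is made by intestine and liver, and its liver transcript is known to vary with hepatic triglyceride.

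Apoa4 rose on the high-fat diet in both sexes, and Apoc2 rose beside it by a smaller factor. Averaged over the maternal diets, Apoa4 rose 3.47-fold in females (log2 change 1.80 ± 0.20 SE, adjusted p = 0.000218) and 6.18-fold in males (2.63 ± 0.30, adjusted p = 0.000216). Apoc2 rose 1.79-fold in females (0.84 ± 0.13, adjusted p = 0.0015) and 1.64-fold in males (0.71 ± 0.12, adjusted p = 0.0051). Apom, a carrier of sphingosine-1-phosphate in high-density lipoprotein, fell by 0.41 ± 0.09 (log2) in males (adjusted p = 0.032). The remaining members did not pass the threshold. These are two-sided limma tests adjusted by the Benjamini-Hochberg method over all features of the sex, with a threshold of 0.05. In this averaged comparison 2 of 9 members passed in females, where 8.78% of all 9446 features did. In males 3 of 10 members passed, where 2.06% of all 10297 features did.

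The promoter windows of Apoa4, Apoc2 and Apom are shown because these members passed the test in at least 1 sex. They run from 250 bases before to 50 bases after the annotated start and come from RefSeq on build GRCm38.p6. Apoa4 lies at chr9:46240594-46240893 on the plus strand, Apoc2 at chr7:19677892-19678191 on the minus strand and Apom at chr17:35131752-35132051 on the minus strand. Capitals mark AGGTCA or AGTTCA, the motif letters that nuclear receptors such as PPAR, LXR and HNF4 recognise, searched on both strands.
Apoa4: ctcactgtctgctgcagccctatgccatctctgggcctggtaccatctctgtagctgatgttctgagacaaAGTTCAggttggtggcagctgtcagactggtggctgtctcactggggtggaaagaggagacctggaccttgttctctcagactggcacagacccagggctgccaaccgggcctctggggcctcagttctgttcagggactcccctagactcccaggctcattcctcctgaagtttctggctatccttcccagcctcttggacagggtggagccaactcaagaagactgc
Apoc2: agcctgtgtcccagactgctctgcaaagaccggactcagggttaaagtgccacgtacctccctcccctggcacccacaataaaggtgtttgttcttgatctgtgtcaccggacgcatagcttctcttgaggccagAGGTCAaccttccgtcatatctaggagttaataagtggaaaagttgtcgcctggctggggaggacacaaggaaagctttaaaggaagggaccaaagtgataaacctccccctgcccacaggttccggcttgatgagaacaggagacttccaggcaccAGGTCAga
Apom: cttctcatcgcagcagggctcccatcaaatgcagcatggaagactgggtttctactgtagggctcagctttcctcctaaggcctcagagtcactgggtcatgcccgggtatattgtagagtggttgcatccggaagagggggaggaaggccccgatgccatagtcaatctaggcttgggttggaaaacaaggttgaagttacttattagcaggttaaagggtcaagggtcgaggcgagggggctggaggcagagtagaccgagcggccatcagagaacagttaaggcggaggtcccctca
The Apoa4 window held 1 AGTTCA, 179 bases before the start, inside the longer HNF4-type word CAAAGTTCA, which starts 182 bases before it. The Apoc2 window held AGGTCA 115 bases before and again 42 bases after the start. The Apom window held neither motif. Of all 32544 promoter windows of the same length, 16.2% held AGGTCA, 14% AGTTCA, 27.7% at least 1 of them and 0.393% CAAAGTTCA. The 8 members with windows had 12 in all. In these the Apoa1 window held 1 AGTTCA and 1 of the Apoa2 windows held 1 AGGTCA, both on the opposite strand, while the windows of Apoe, Apoa5 and Apob held neither. CAAAGTCCA, another HNF4-type word (0.479% of all windows), was in no member window. TATAAA (13.6% of all windows), also searched on both strands, was in windows of Apoa2, Apoa5, Apob and Apoe and in none of those printed. These matches describe letters in a window only.

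In female liver the normalised log2 intensity of Apoa4 on the control diet was 10.55, 10.85, 11.63 and 10.89 in offspring of 18% mothers. On the high-fat diet it was 13.33, 11.82, 12.31 and 11.77. In offspring of 9% mothers it was 10.87, 10.86, 10.52 and 10.60 on control diet and 13.39, 13.13, 12.86 and 12.54 on high-fat diet. All 8 high-fat values lay above all 8 control values, and the highest control array, at 11.63, was just under the lowest high-fat array, at 11.77. The order of the group means was control 9% (10.71 ± 0.18 SD), control 18% (10.98 ± 0.46), high-fat 18% (12.30 ± 0.72) and high-fat 9% (12.98 ± 0.37). The control groups overlapped each other, and so did the high-fat groups.

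Apoa4 rose 4.82-fold in female offspring of 9% mothers (2.27 ± 0.29, 95% interval 1.66 to 2.88, adjusted p = 0.0017). In offspring of 18% mothers the change was 1.33 ± 0.29 (interval 0.71 to 1.94), which did not pass (adjusted p = 0.11) although the groups did not overlap. Within 9% mothers 2 of 9 members, Apoa4 and Apoc2, passed, against 4.35% of all features. Within 18% mothers 0 of 9 members passed, against 0.0847% of features, and 3 (Apoa4, Apoa5 and Apoc2) had an unadjusted p under 0.05, as did 11.9% of features. Groups did not overlap for 1 member within 18% mothers, where this held for 7.27% of features, and for 3 members within 9% mothers, where it held for 10.9%. With array brightness (mean raw intensity) added to the model, the Apoa4 change within 9% mothers was 1.86 (adjusted p = 0.063), and averaged over maternal diets it was 1.49 (adjusted p = 0.023). The array means moved with diet, so covariate and diet share part of their variation.

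In male liver Apoa4, read by another probe than in females, was 8.06, 9.05, 8.75 and 8.99 on control diet in offspring of 18% mothers. On the high-fat diet these values were 11.78, 10.97, 11.75 and 11.95. In offspring of 9% mothers the control arrays read 9.79, 8.15, 10.53 and 8.78 and the high-fat arrays 11.12, 12.62, 11.21 and 11.70. Again all 8 high-fat values exceeded all 8 control values, with 10.53 as the highest control and 10.97 as the lowest high-fat array. The controls of 9% mothers were the most spread of the 4 groups, at 9.31 ± 1.06 (SD), against 8.71 ± 0.45 for controls of 18% mothers. The high-fat means were 11.62 ± 0.44 (18% mothers) and 11.66 ± 0.69 (9% mothers), and the groups overlapped.

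Male Apoa4 rose 7.47-fold within 18% mothers (2.90 ± 0.43, 95% interval 2.00 to 3.81, adjusted p = 0.0049). It rose 5.10-fold within 9% mothers (2.35 ± 0.43, interval 1.45 to 3.26, adjusted p = 0.042). In 18% mothers 2 of 10 members passed, Apoa4 and Apoc2, against 0.631% of features. In 9% mothers 1 of 10 passed, against 0.107%. Groups did not overlap for 3 members within 18% mothers (6.86% of features) and for 4 within 9% mothers (7.63%). The call within 9% mothers was lost when any 1 of 5 arrays was left out. Without control replicates 1, 2 or 4 the adjusted p was 0.0503, 0.097 and 0.12 with changes of 2.51, 1.96 and 2.17. Without high-fat replicates 2 or 4 it was 0.15 and 0.10 with changes of 2.03 and 2.34. It was also lost in the deposited normalised table (2.39, adjusted p = 0.081), with the intensity covariate (2.18, 0.12) and in a fit of only the groups compared (2.35, 0.17). A fit with replicate number as a block lost it too.

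**Figure D1:**
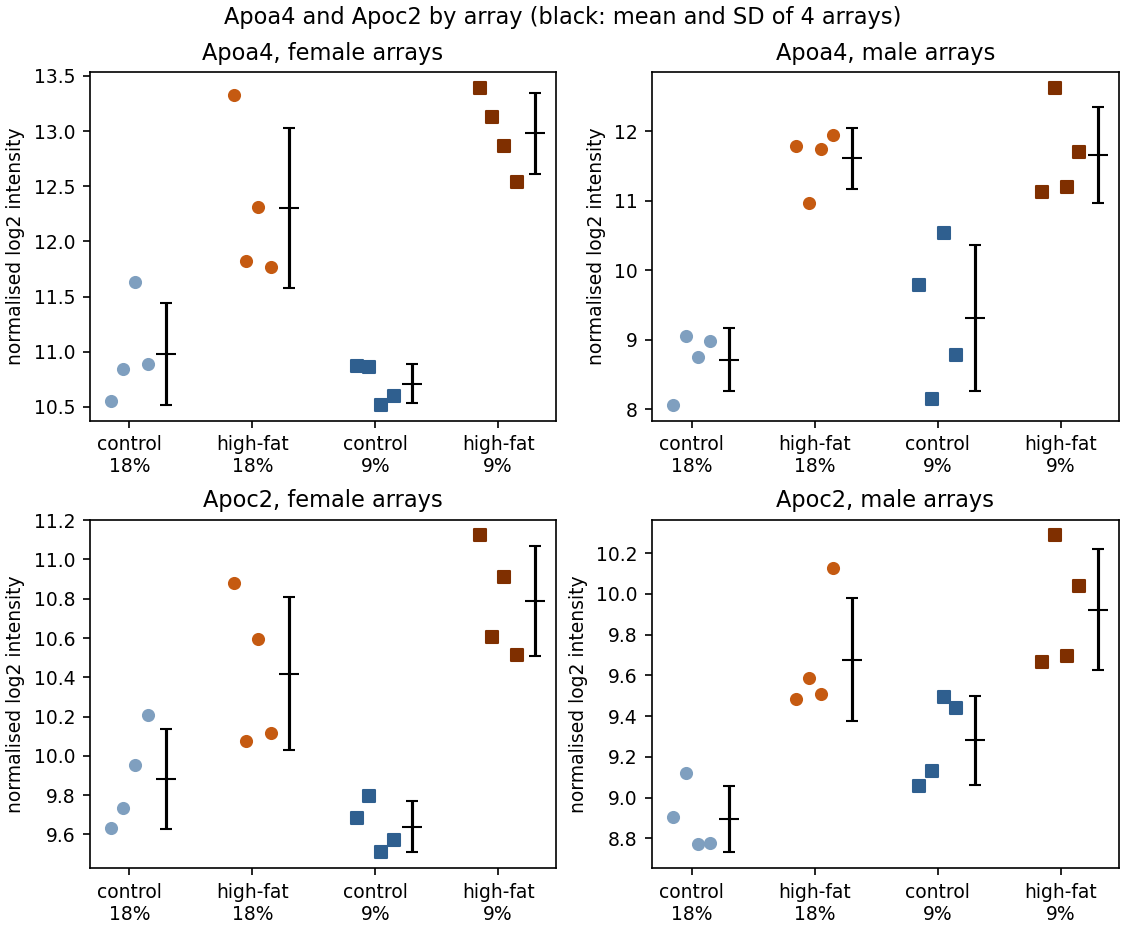
Normalised log2 intensity of Apoa4 (top) and Apoc2 (bottom) on each array, female left and male right, for the 4 combinations of offspring diet and maternal protein; black bars are the mean and SD of 4 arrays. All high-fat arrays lie above all control arrays for Apoa4, from 11.77 up against 11.63 in females and from 10.97 up against 10.53 in males, while Apoc2 moves less and its diet groups meet.

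Apoc2, the lipase cofactor, was read in both sexes by 1 common probe. In females it gave 9.63, 9.73, 9.95 and 10.21 on control diet and 10.88, 10.08, 10.60 and 10.12 on high-fat diet in offspring of 18% mothers. Offspring of 9% mothers had 9.68, 9.80, 9.51 and 9.57 on control diet and 11.12, 10.60, 10.91 and 10.51 on high-fat diet. The diets did not overlap within 9% mothers and overlapped within 18% mothers, where replicates 2 and 4 of the high-fat group lay below the highest control. The group means were 9.64 ± 0.13 (control 9%), 9.88 ± 0.26 (control 18%), 10.42 ± 0.39 (high-fat 18%) and 10.79 ± 0.28 (high-fat 9%), each overlapping the next. Apoc2 rose 2.22-fold within 9% mothers (1.15 ± 0.18, interval 0.77 to 1.52, adjusted p = 0.0048). Within 18% mothers the change was 0.54 ± 0.18 (interval 0.16 to 0.91, adjusted p = 0.27). A second female probe gave 1.23 ± 0.24 within 9% mothers (adjusted p = 0.011) and 0.63 ± 0.24 within 18% mothers (adjusted p = 0.31). With the intensity covariate the first probe gave 0.86 within 9% mothers (adjusted p = 0.30) and 0.63 averaged over maternal diets (adjusted p = 0.10), so that both calls were lost.

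In males Apoc2 gave 8.91, 9.12, 8.77 and 8.78 on control diet and 9.49, 9.59, 9.51 and 10.13 on high-fat diet in offspring of 18% mothers. Offspring of 9% mothers had 9.05, 9.13, 9.49 and 9.44 on control diet and 9.67, 10.29, 9.70 and 10.04 on high-fat diet. The normalised values of the diets did not overlap under either maternal diet. Raw intensities did, on arrays that differ in brightness. They were 427 to 1047 on high-fat and 427 to 556 on control diet with 18% mothers. With 9% mothers they were 716 to 1106 and 527 to 752. The order of the means was 8.89 ± 0.16 (control 18%), 9.28 ± 0.22 (control 9%), 9.68 ± 0.30 (high-fat 18%) and 9.92 ± 0.30 (high-fat 9%). Each group overlapped the next in this order, with the control 9% and high-fat 18% groups meeting at 9.49. Apoc2 rose 1.72-fold within 18% mothers (0.78 ± 0.17, interval 0.42 to 1.15, adjusted p = 0.047). Within 9% mothers the change of 0.64 ± 0.17 (interval 0.28 to 1.01) did not pass (adjusted p = 0.19). The call within 18% mothers lay at the threshold: it was lost without any 1 of control replicates 1 to 4 (adjusted p 0.078, 0.079, 0.17 and 0.13) or high-fat replicates 1, 2 or 4 (0.095, 0.055 and 0.15). The changes in these fits ran from 0.63 to 0.86. It was also lost in 6 of 9 alternative settings (adjusted p 0.052 to 0.098), with changes from 0.74 to 0.81. Averaged over maternal diets, male Apoc2 passed in all 9 alternative settings and without each of the 16 arrays.

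**Figure D2:**
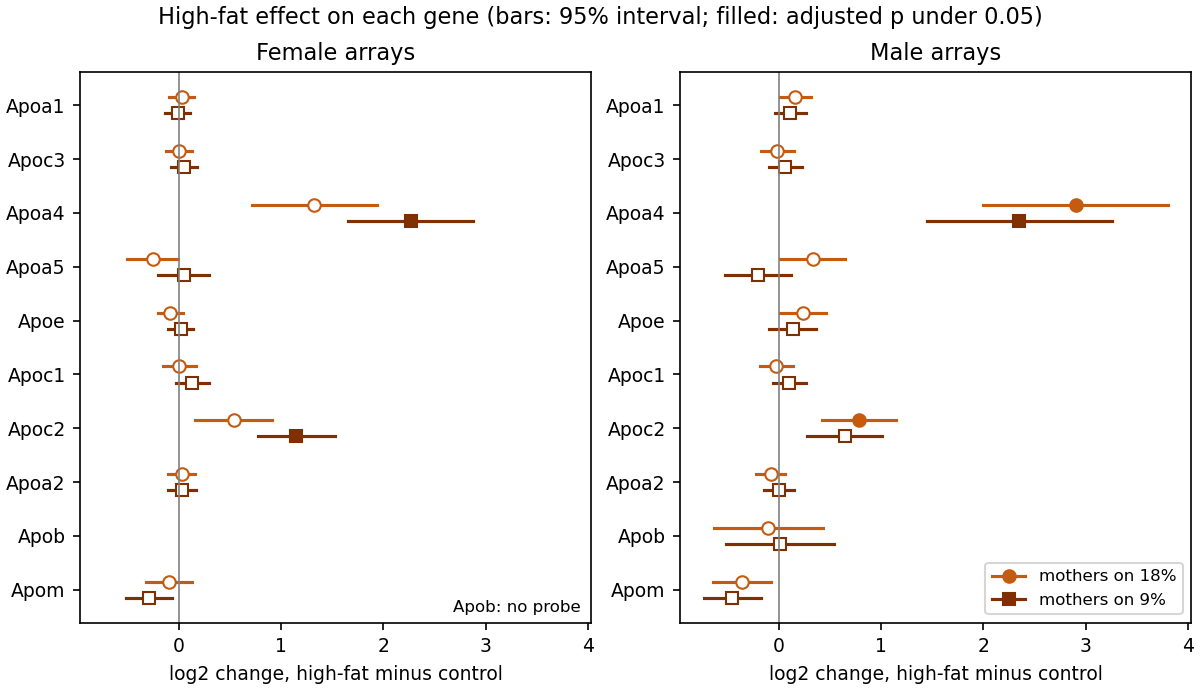
Log2 change on the high-fat diet for each of the 10 genes, female arrays left and male arrays right, in offspring of 18% (circles) and 9% mothers (squares); bars are 95% intervals and filled symbols have an adjusted p under 0.05. Apoa4 and Apoc2 stand to the right of 0 in both sexes, from 0.54 to 2.90, and the brightest members lie close to 0 with short intervals.

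Apoa1, Apoa2, Apoc1, Apoc3 and Apoe were among the brightest probes of the liver arrays. Their raw intensities were 63.8% to 100% of the brightest probe of the array in females and 47.1% to 100% in males. Apoc3 was the brightest probe on 6 of 16 female arrays, and Apoa2 on 14 of 16 male arrays. Quantile normalisation gives the brightest probe of every array the same value, 15.14 in females and 14.68 in males. Differences between groups could therefore not be read at that end of the scale, and male Apoa2 stood at 14.68 on all 8 control arrays. The Apoa4 probe, by contrast, ran from 3.97% to 25.9% of the brightest signal in females and from 0.863% to 21.1% in males.

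**Figure D3:**
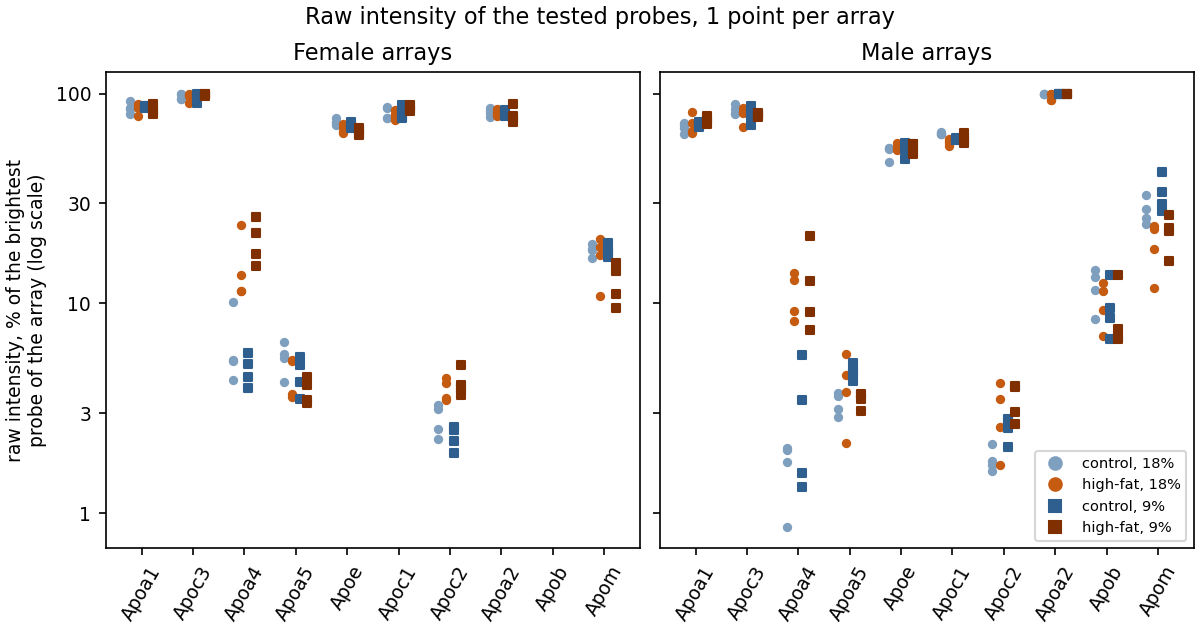
Raw intensity of the tested probe of each gene as a percentage of the brightest probe of the same array (log scale), 1 point per array, coloured by group, female left and male right. Apoa1, Apoc3, Apoe, Apoc1 and Apoa2 sit near the top, from 47.1% up, and Apoa4 spreads over the widest range, from 0.863% to 21.1% in males.

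Among these 5 bright members, changes averaged over maternal diets ran from -0.03 to 0.07 in females and from -0.04 to 0.18 in males, and 0 of 5 passed in either sex. The 95% intervals of all 5 reached from -0.12 to 0.18 in females. In males they reached from -0.14 to 0.34. Apoa1, the activator of cholesterol esterification in plasma, changed by 0.01 ± 0.04 in females (interval -0.08 to 0.09) and 0.13 ± 0.05 in males (interval 0.03 to 0.24, adjusted p = 0.20). On 5 of 8 male high-fat arrays it was above every control array. Apoe changed by -0.03 ± 0.04 in females and 0.18 ± 0.08 in males (interval 0.02 to 0.34, adjusted p = 0.25).

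Apoc3, which inhibits lipoprotein lipase, changed by 0.02 ± 0.04 in females (interval -0.07 to 0.12) and 0.02 ± 0.05 in males (interval -0.09 to 0.14). Apoc1 changed by 0.07 ± 0.05 and 0.04 ± 0.05, and a second Apoc1 probe gave 0.07 ± 0.05 in females and 0.10 ± 0.06 in males. Apoa2 changed by 0.03 ± 0.04 in females and -0.04 ± 0.05 in males, where a second probe below the ceiling gave 0.00 ± 0.05. Among the C apolipoproteins, the cofactor Apoc2 passed in both sexes and the inhibitors Apoc1 and Apoc3 in neither. Apoc1 and Apoc3 lay near the top of the array range, where a rise can hardly be read. The difference between genes was not tested. The deposited normalised table gave the same changes to 2 decimals for these 5 genes in females. Both versions are quantile normalised and set the value of such a probe by its rank, so this is no separate check. When arrays were instead only centred on their medians, the female changes of Apoa1, Apoa2, Apoc1, Apoc3 and Apoe were 0.20, 0.20, 0.25, 0.24 and 0.12 (adjusted p 0.13, 0.17, 0.13, 0.077 and 0.34). Apoe turned from negative to positive there, as did male Apoa2, at 0.16 (adjusted p = 0.40).

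Apom on the female arrays read 12.54, 12.63, 12.58 and 12.60 on control diet and 12.15, 12.68, 12.65 and 12.49 on high-fat diet with 18% mothers. With 9% mothers it read 12.56, 12.54, 12.63 and 12.69 on control diet and 12.18, 12.50, 12.18 and 12.39 on high-fat diet. The last pair of groups did not overlap, and 6 of 8 high-fat arrays lay below every control array. The female changes were -0.29 ± 0.11 within 9% mothers (adjusted p = 0.12) and -0.10 ± 0.11 within 18% mothers (adjusted p = 0.75). Averaged, the change was -0.19 ± 0.07 and did not pass (interval -0.35 to -0.04, adjusted p = 0.11).

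On the male arrays Apom, read by another probe, was 12.75, 12.72, 12.98 and 12.61 on control diet and 12.70, 12.33, 12.25 and 12.33 on high-fat diet with 18% mothers. With 9% mothers it was 12.89, 13.13, 12.85 and 13.12 on control diet and 12.69, 12.22, 12.79 and 12.48 on high-fat diet. Here 5 of 8 high-fat arrays were below every control array. The changes of -0.36 ± 0.13 within 18% mothers and -0.46 ± 0.13 within 9% mothers did not pass (adjusted p = 0.23 in each). The averaged fall of 0.41 (0.753-fold, interval -0.61 to -0.21) passed at an adjusted p of 0.032. That call was lost in 4 of 9 alternative settings. It was also lost without any 1 of 8 of the 16 arrays, namely replicates 2 and 3 of control 18%, 3 and 4 of high-fat 18%, 2 and 4 of control 9% and 2 and 4 of high-fat 9% (adjusted p 0.052 to 0.082). All these fits gave changes between -0.46 and -0.35.

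**Figure D4:**
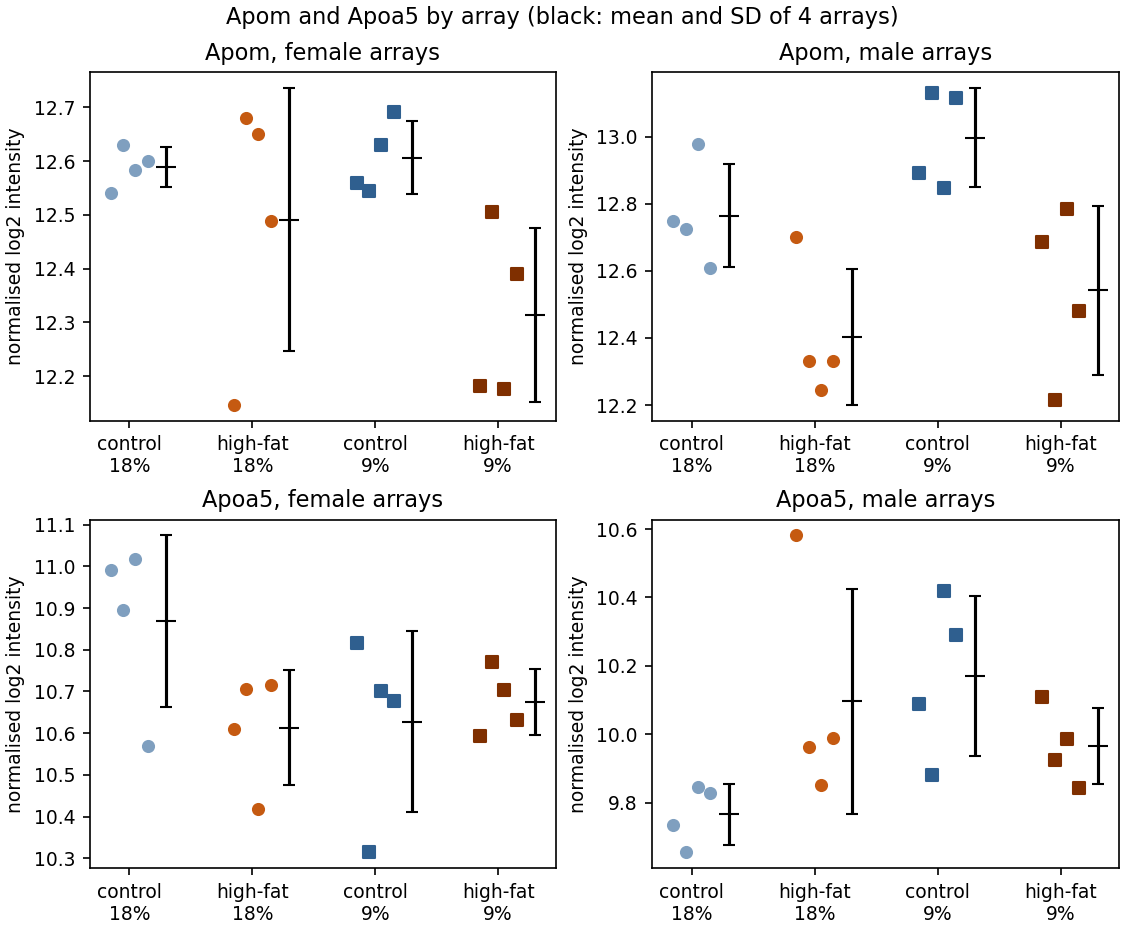
Normalised log2 intensity of Apom (top) and Apoa5 (bottom) on each array, female left and male right, by offspring diet and maternal protein; black bars are the mean and SD of 4 arrays. Apom is lower on most high-fat arrays, with 5 of 8 in males below every control array, and male Apoa5 is lowest in the control 18% group, at 9.66 to 9.85.

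Apoa5, which lowers plasma triglyceride by promoting lipolysis, did not pass in any comparison. In males it read 9.74, 9.66, 9.85 and 9.83 on control diet with 18% mothers, below the 10.09, 9.88, 10.42 and 10.29 of controls with 9% mothers. On the high-fat diet it read 10.58, 9.96, 9.85 and 9.99 with 18% mothers and 10.11, 9.92, 9.99 and 9.84 with 9% mothers. The high-fat change was 0.33 ± 0.15 within 18% mothers (adjusted p = 0.32) and -0.20 ± 0.15 within 9% mothers (adjusted p = 0.69). In females Apoa5 read 10.99, 10.90, 11.02 and 10.57 on control diet and 10.61, 10.71, 10.42 and 10.72 on high-fat diet with 18% mothers. With 9% mothers it read 10.82, 10.31, 10.70 and 10.68 on control diet and 10.59, 10.77, 10.70 and 10.63 on high-fat diet. The female changes were -0.26 ± 0.12 (adjusted p = 0.41) and 0.05 ± 0.12 (adjusted p = 0.85).

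Apob, measured only on the male arrays, ranged from 10.78 to 11.92 with overlap of all groups. With 18% mothers it read 11.30, 11.42, 11.72 and 11.82 on control diet and 11.61, 11.43, 11.92 and 10.88 on high-fat diet. With 9% mothers it read 10.79, 10.91, 11.84 and 11.16 on control diet and 10.99, 11.19, 11.76 and 10.78 on high-fat diet. The averaged change was -0.05 ± 0.18 (interval -0.42 to 0.33, adjusted p = 0.92).

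The maternal diet comparison asks whether a low-protein pregnancy left a mark on these genes in the adult liver. On the control diet, 0 of 9 members in females and 0 of 10 in males passed, and 0% of features passed in either sex with limma. At an unadjusted p under 0.05 there were 0 members in females and 2 in males, Apoa5 (0.40 ± 0.15, adjusted p = 1) and Apoc2 (0.39 ± 0.17, adjusted p = 1), higher with 9% mothers. Over all features this unadjusted count was 593 in females and 379 in males. Male Apoa5 and Apoc1 (-0.13 ± 0.08) were the members whose control groups did not overlap between maternal diets, as was the case for 2.83% of male features; in females there were 0 such members, against 3.18% of features. The second Apoc1 probe gave 0.21 ± 0.08 in the opposite direction.

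On the high-fat diet 0 members and 0% of features passed in either sex. Female Apoa4 was 0.67 ± 0.29 higher with 9% mothers (interval 0.06 to 1.29, unadjusted p = 0.033, adjusted p = 0.49), the only member under 0.05 unadjusted in females, and in males there were 0. The unadjusted counts over all features were 898 in females and 713 in males. Groups overlapped between maternal diets for every member, while they did not for 4.33% of female and 3.38% of male features. Female Apoc2 was 0.37 ± 0.18 higher with 9% mothers (adjusted p = 0.53).

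The interaction tests whether the high-fat effect depended on the mother's diet, and it called 0 members and 0% of features in either sex. The female Apoa4 response was 0.94 ± 0.41 larger with 9% than with 18% mothers (interval 0.08 to 1.81, unadjusted p = 0.035, adjusted p = 0.88). For Apoc2 this difference was 0.61 ± 0.25 (interval 0.08 to 1.14, unadjusted p = 0.027, adjusted p = 0.88). In males the corresponding values were -0.55 ± 0.61 for Apoa4 (interval -1.83 to 0.73) and -0.14 ± 0.24 for Apoc2 (interval -0.66 to 0.37). Male Apoa5 had an interaction of -0.53 ± 0.21 (unadjusted p = 0.023, adjusted p = 0.69). Unadjusted counts over all features were 500 in females and 699 in males. That Apoa4 and Apoc2 passed with 9% and not with 18% mothers in females was thus not shown to be a difference between maternal diets.

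The responses of males and females to the high-fat diet were compared over 6941 genes on both array versions. None of the 9 shared members passed: 0 within 18% mothers, 0 within 9% mothers and 0 on average, where 0%, 0% and 0.0720% of genes did. At an unadjusted p under 0.05 there were 3, 1 and 2 members, and 762, 524 and 765 genes (11.0%, 7.55% and 11.0%). The members were Apoa4, Apoa5 and Apoe within 18% mothers, Apoc2 within 9% mothers, and Apoa4 and Apoe on average. Apoe responded by 0.32 ± 0.12 more in males within 18% mothers (adjusted p = 0.36) and by 0.22 ± 0.09 more on average (adjusted p = 0.35). The averaged Apoa4 difference was 0.83 ± 0.37 (adjusted p = 0.40). Apoa4 responded by 1.58 ± 0.52 more in males within 18% mothers (interval 0.52 to 2.63, adjusted p = 0.27) and by 0.08 ± 0.52 more within 9% mothers (adjusted p = 0.98), on different probes. The Apoc2 difference, on the same probe, was 0.25 ± 0.25 within 18% mothers and -0.51 ± 0.25 within 9% mothers (adjusted p = 0.71 and 0.65). Apoa5 differed by 0.59 ± 0.19 within 18% mothers (adjusted p = 0.27), with a change of -0.26 in females and 0.33 in males.

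Apoa4 and Apoc2 lie in different gene clusters. The order on chromosome 9 is Apoa1, Apoc3, Apoa4 and Apoa5, and on chromosome 7 Apoc2, Apoc4, Apoc1 and Apoe, per RefSeq on GRCm38.p6. Within the first cluster Apoa4 was the only gene past the threshold in the averaged high-fat comparison in either sex, with its neighbours Apoc3 at 0.02 in each sex and Apoa5 at -0.10 in females and 0.06 in males. Within the second cluster Apoc2 was the only one. Apoa1, Apoc3, Apoc1 and Apoe were among the brightest probes, where quantile normalisation limits the differences that can be read. Their small changes are thus no measure of a lack of response. Apoc4, a minor C apolipoprotein between Apoc2 and Apoc1, changed by 0.20 ± 0.06 in females (adjusted p = 0.055) and 0.10 ± 0.07 in males (adjusted p = 0.44). The flanking genes tested, chosen after their values were seen, were Sik3, Zpr1 and Bud13 on chromosome 9 and Clptm1, Tomm40 and Nectin2 on chromosome 7. Of these, Sik3, a kinase gene, fell in females (-0.49 ± 0.12, adjusted p = 0.018). Its male change was -0.50 ± 0.38 (adjusted p = 0.53).

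Across the 16 arrays of a sex, which include the diet groups, Apoa4 and Apoc2 followed each other with a Pearson correlation of 0.95 in females and 0.86 in males (Spearman 0.96 and 0.83). Deviations from the group means still correlated at 0.77 in females and 0.48 in males. Without the 2 arrays farthest from the Apoa4 median the correlations were 0.92 and 0.85. Apom ran against Apoa4 at -0.75 in each sex (Spearman -0.62 in females and -0.74 in males), and at -0.58 on deviations from the group means. Without the same 2 arrays the Apom correlations were -0.58 in females and -0.74 in males. Arrays share normalisation and brightness, so these values are descriptions.

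**Figure D5:**
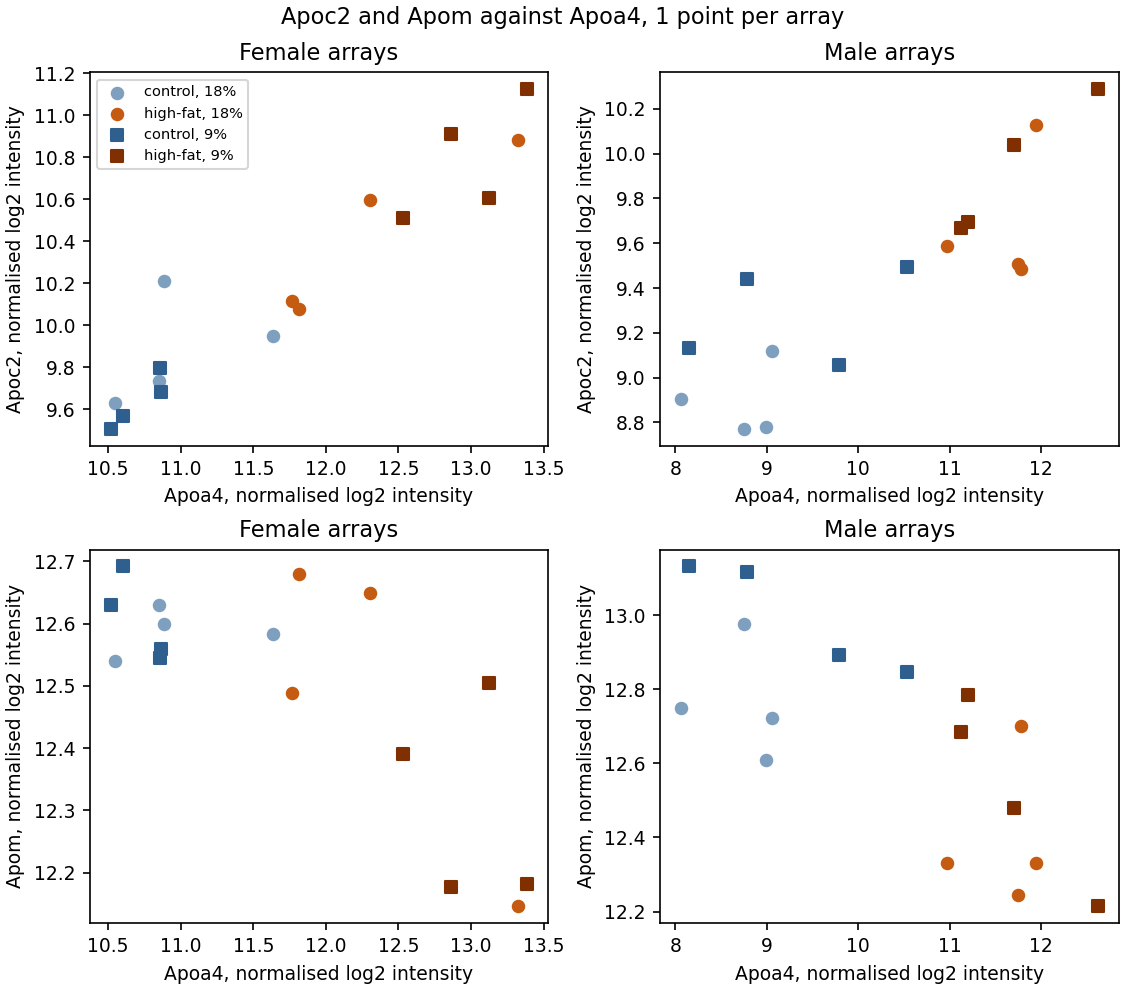
Apoc2 (top) and Apom (bottom) against Apoa4, all in normalised log2 intensity, 1 point per array, female left and male right, coloured by group. Apoc2 climbs with Apoa4 (Pearson 0.95 and 0.86 over 16 arrays) and Apom declines (-0.75 in each sex).

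Outside the 10 members, the named genes most like Apoa4 over the 16 female arrays were Aqp4, a water channel (Pearson 0.94, Spearman 0.90), Gatb (0.93, 0.95) and Gstk1, a glutathione transferase (0.93, 0.91). In males they were Cidec, a lipid droplet protein (0.93, 0.91), Dntt (0.92, 0.94) and Copz2 (0.89, 0.85). Those most like Apoc2, members again left out, were Dntt (0.94, 0.95), Gstk1 (0.94, 0.90) and Mrpl54 (0.93, 0.94) in females. In males, likewise without the members, they were Spc24 (0.87, 0.89), Lgals1 (0.85, 0.83) and Arsg (0.85, 0.86). Cidec changed by 3.74 ± 0.36 on the high-fat diet in males (adjusted p = 3.6e-05) and Aqp4 by 2.07 ± 0.33 in females (adjusted p = 0.0021). On deviations from the group means the correlation with Apoa4 was 0.59 for Cidec and 0.80 for Aqp4.

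A list of 66 other lipoprotein genes covered assembly, plasma remodelling, receptors, minor apolipoproteins and transcriptional regulators, and 52 of them were tested in each sex. Averaged over maternal diets, 4 rose and 5 fell in females, where 4.63% of all features rose and 4.15% fell, with a median of -0.04 against 0.00 for all features. Pltp, the phospholipid transfer protein that remodels high-density lipoprotein, rose by 1.89 ± 0.16 (adjusted p = 1.8e-05). Angptl4, an inhibitor of lipoprotein lipase, rose by 0.83 ± 0.16 (adjusted p = 0.0075), and Ppara, a fatty acid-sensing nuclear receptor, by 0.48 ± 0.10 (adjusted p = 0.010). Sort1, a sorting receptor that binds Apob, fell by 0.80 ± 0.15 (adjusted p = 0.0067). Mia2, which supports export of large lipoprotein cargo, fell by 0.49 ± 0.12 (adjusted p = 0.021), with detection on 6 of 8 high-fat arrays. Hnf4a, the liver receptor that activates many apolipoprotein genes, fell by 0.32 ± 0.09 (adjusted p = 0.031).

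Within 9% mothers 3 of these 52 genes rose in females (Pltp 2.37, Angptl4 1.00 and Ppara 0.55) and 3 fell (Sort1 -0.86, Mia2 -0.64 and Clu -0.35), where 2.45% of all features rose and 1.91% fell. Within 18% mothers Pltp rose (1.42 ± 0.23, adjusted p = 0.027) and 0 fell, where 0.0635% of all features rose and 0.0212% fell. In males 0 of 52 passed within either maternal diet, with 13 (18% mothers) and 6 (9% mothers) at an unadjusted p under 0.05, where 14.9% and 10.1% of all features were. On average 2 male genes rose, Pltp (1.56 ± 0.39, adjusted p = 0.046) and Saa1, an acute-phase apolipoprotein of high-density lipoprotein (1.42 ± 0.35, adjusted p = 0.042), and 0 fell, where 1.22% of all features rose and 0.835% fell. The male median was -0.07 against 0.00 for all features. The male changes of Sort1 and Hnf4a were -0.70 ± 0.18 (adjusted p = 0.056) and -0.30 ± 0.10 (adjusted p = 0.15). By role, 8 of 11 other apolipoproteins and RNA editing genes, 4 of 12 assembly genes, 4 of 6 remodelling genes, 2 of 10 receptors and transporters and 5 of 13 regulators had a positive averaged change in females, where 50.6% of all features did. The female medians in this order were 0.08, -0.07, 0.13, -0.14 and -0.06. In males the counts were 5 of 11, 6 of 13, 4 of 6, 3 of 10 and 1 of 12, where 49.5% of all features did, with medians of -0.05, -0.07, 0.18, -0.06 and -0.19.

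Apoa4 is also an intestinal gene, and markers of intestinal epithelium were therefore looked at. In females Cdh17, Fabp2, Sis and Vil1, 4 of 4 measured, were detected on no array. Their summed raw intensity lay between 0 and 1.84 over all groups. In this sum and those below, negative values were set to 0. In males Alpi, Cdh17 and Fabp2 were detected on no array, 3 of 4 measured. The remaining 1, Vil1, was detected on at least 4 arrays and changed by 0.07 ± 0.10 on the high-fat diet (adjusted p = 0.72). The summed intensity was 6.36 to 17.7 in controls and 10.9 to 22.5 on high-fat diet with 18% mothers. With 9% mothers it was 10.4 to 23.3 in controls and 11.8 to 19.8 on high-fat diet. The adipocyte list, 3 measured genes in each sex, had no gene detected on 4 or more arrays, and its summed intensity was at most 13.9 in females and 25.7 in males. Of the hepatocyte markers 1 of 9 fell in females (Cps1, -0.49 ± 0.12, adjusted p = 0.019) and 1 of 7 in males (Tdo2, -0.32 ± 0.08, adjusted p = 0.039), 0 rose, and the medians were 0.06 and -0.06. Of the stellate markers 1 of 6 fell in females (Reln, -0.34 ± 0.10, adjusted p = 0.040) and 0 of 5 in males. In this comparison, averaged over maternal diets, 4.15% of all features fell in females and 0.835% in males. No tested Kupffer cell, endothelial, bile duct or pancreatic acinar marker passed in either sex. The summed raw intensity of the hepatocyte markers was 115360 to 137418 in female controls of 18% mothers and 87597 to 113319 on high-fat diet. With 9% mothers it was 107718 to 131102 and 88701 to 111499. In males the diets overlapped, at 46411 to 52955 against 35088 to 55177 with 18% mothers and 42908 to 51518 against 38104 to 54400 with 9% mothers. The female sums were thus lower on high-fat diet with 18% mothers, on arrays whose mean intensity was also lower, and the part of this in the member results was not tested.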

How the data were processed

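Liver RNA of 32 mice was hybridised to bead arrays, 16 of each sex. The deposited intensity tables hold background-subtracted values that were not normalised between arrays, with a detection p-value for each, per the file headers. The authors also deposited normalised intensity values, whose quantiles are shared between arrays. The submitters' processing notes name BeadStudio; no version is given in the sources used here.

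Here, negative controls were inferred from detection p, and values were background corrected, quantile normalised and log2 transformed with neqc (offset 16) in limma 3.58.1 under R 4.3.3. A probe was kept when its detection p was under 0.05 on 4 or more of the 16 arrays (12561 female, 12173 male). On the female version 23978 probes had 1 symbol and 1719 none; on the male version 20984 had 1, 1 had several and 3628 none. The brightest probe per gene was tested with lmFit and eBayes with an intensity trend, the 4 groups of a sex together, two-sided, with p-values adjusted by Benjamini-Hochberg over 9446 female and 10297 male features. Sex differences used the difference of 2 limma effects with Welch-Satterthwaite degrees of freedom. The procedure was tested on simulated data. The number of arrays, 4 per group, limits the precision.

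The members, the lipoprotein list and the markers were chosen with earlier results of these data known. All members were named; listed genes were named when past the threshold, up to 6 by smallest p; the 3 genes most correlated with Apoa4 and with Apoc2 were named. Alternatives were the deposited normalised table, median centring, an offset of 50, other detection filters, every probe as a feature, an intensity covariate, a replicate block, array weights or only the groups compared, and leaving out each array. Figures used matplotlib 3.10.9 under Python 3.11.15.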

Additional observations from a re-analysis of the deposited data

Results flagged for a closer look

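Of 73 sets of 4 arrays examined for the members, 2 had 1 array far from its 3 fellows by Dixon's criterion at the 95% level, and chance alone gives about 5% of sets. Replicate 4 of the male high-fat group with 18% mothers read 10.13 for Apoc2 where the others read 9.49 to 9.59. Without that array the Apoc2 change within 18% mothers was 0.63 (adjusted p = 0.15) instead of 0.78 (adjusted p = 0.047). Replicate 2 of the male control group with 9% mothers read 13.79 for Apoc1 where the others read 13.93 to 13.94, and Apoc1 passed the test in no comparison.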

How the results depend on the processing

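The number of members past the threshold on the high-fat diet was 0 (18% mothers), 2 (9% mothers) and 2 (average) in females and 2, 1 and 3 in males. With the intensity covariate the female counts were 0 within 9% mothers and 1 on average, and the male counts 1 within 18% mothers and 0 within 9% mothers. The male count within 18% mothers was also 1 in the deposited normalised table, with median centring, an offset of 50, no detection filter or only the groups compared. The male count within 9% mothers was 0 in the deposited normalised table, with the replicate block and with only the groups compared. The Apom call, among the 3 of the male average, was lost in some alternative settings, as given with Apom above. Leaving out each array gave 0 to 0, 2 to 2 and 2 to 2 members in females and 1 to 2, 0 to 1 and 2 to 3 in males, and 0 to 0 for the maternal diet and the interaction in both sexes. No change reversed a called direction. Whether arrays with the same replicate number belong together is not in the labels, and their correlations did not settle it. Deviations of such arrays correlated at -0.20 to 0.32 in females and -0.16 to 0.49 in males. The median was 0.06 in each, against -0.03 and -0.01 for other numbers, and 10 of 24 pairs in each sex were over 0.1. With their own number, 7 of 16 female and 10 of 16 male arrays correlated best. The replicate block changed no other member count. Over all features, the calls of the averaged comparison ranged from 11 (covariate) to 1112 around 829 in females and from 89 to 377 around 212 in males. Within 9% mothers they ranged from 3 (covariate) to 555 around 411 in females and from 1 to 26 around 11 in males. Within 18% mothers they ranged from 0 to 10 around 8 in females and from 19 (deposited table) to 72 around 65 in males. Leaving out 1 array gave 84 to 611, 469 to 959 and 0 to 19 in females and 7 to 22, 97 to 260 and 10 to 102 in males, in the same order of 9% mothers, average and 18% mothers. Over all features the male interaction called up to 2 under other settings and up to 4 without 1 array, and the female maternal comparison up to 2 (control diet) and 4 (high-fat diet) without 1 array, each from 0. Signals at the top of the array range limit what can be read for Apoa2 and Apoc3.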
